A study of Mus musculus with 36 samples.

Results

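The collagen genes of the mouse were taken as the probe sets whose platform annotation gives a single symbol of the form Col, a type number, the letter a and a chain number. There were 82 such probe sets of 45037 analysed, and they stood for 42 genes of 26 collagen types. A single probe set measured 15 of the genes, and 27 had more than 1. RefSeq lists 44 such symbols in this species, and no probe set of its own was matched to Col6a6 or Col28a1. Where a gene had several probe sets, the one with the highest mean score over all 36 arrays stands for it below.

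The levels were measured in white adipose tissue (WAT), brown adipose tissue (BAT) and liver of 12 male ddY mice, an outbred stock, which arrived at 5 weeks of age and were acclimated for 1 week. CAAM mice (numbers 2, 4, 5, 6 and 7, n = 5) received by feeding tube a mixture of amino acids in the proportions found in casein, once a day for 5 days. Water mice (numbers 1 to 7, n = 7) received water in the same way. Each mouse gave 1 array of each tissue, taken 4 h after the last dose, and all mice had free access to chow until that last day. The study left out 2 further CAAM mice for abnormal liver morphology, and the fat depot behind WAT is not given in the sources used here. Arrays of the study's other amino acid mixture were not analysed here.

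Collagens are the main structural proteins of the extracellular matrix, each a rope of alpha chains wound around each other. Fibrillar collagens (types I, III and V among others) form the fibres of connective tissue, type IV forms the sheet of basement membranes, which surround every adipocyte and line blood vessels, and type VI forms beaded filaments between cells and their surroundings and is abundant in fat. Fibrillar collagen in these tissues is made chiefly by fibroblasts, adipocyte progenitors and, in liver, stellate cells, whereas hepatocytes are known as a source of type XVIII, the precursor of endostatin.

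Several collagen genes lie side by side in the genome. In RefSeq (GRCm38.p6) Col4a1 and Col4a2, whose products join in the most common type IV molecule, start head to head on chromosome 8 and their annotated ends overlap by 85 bases. Col4a4 and Col4a3 overlap by 114 bases on chromosome 1, and Col4a6 and Col4a5 lie 1274 bases apart on chromosome X. Col3a1 and Col5a2 lie 24624 bases apart on chromosome 1, and Col6a2 and Col6a1 lie 85161 bases apart on chromosome 10, with 0 coding genes between them in each case. RefSeq promoter windows, from 250 bases before an annotated start to 50 bases after it, were at hand for 33 of the 42 genes. For some genes, Col4a1 among them, that start differs from the outer end of the gene used for the distances above. The windows of Col4a1 and Col4a2 are shown because these 2 genes moved together from mouse to mouse in each tissue, and those of Col1a2 and Col3a1 because they are major fibrillar chains with large differences between tissues. Capitals mark the letters CCAAT or, on the other strand, ATTGG. The windows are chr8:11312777-11313076 (minus strand) for Col4a1, chr8:11312555-11312854 (plus strand) for Col4a2, chr6:4505368-4505667 (plus strand) for Col1a2 and chr1:45311288-45311587 (plus strand) for Col3a1.
Col4a1: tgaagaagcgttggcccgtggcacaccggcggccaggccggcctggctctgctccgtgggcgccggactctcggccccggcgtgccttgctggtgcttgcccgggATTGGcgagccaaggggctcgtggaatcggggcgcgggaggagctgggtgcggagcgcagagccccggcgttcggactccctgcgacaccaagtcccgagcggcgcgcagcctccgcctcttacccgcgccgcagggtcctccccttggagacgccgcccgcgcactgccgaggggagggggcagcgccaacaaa
Col4a2: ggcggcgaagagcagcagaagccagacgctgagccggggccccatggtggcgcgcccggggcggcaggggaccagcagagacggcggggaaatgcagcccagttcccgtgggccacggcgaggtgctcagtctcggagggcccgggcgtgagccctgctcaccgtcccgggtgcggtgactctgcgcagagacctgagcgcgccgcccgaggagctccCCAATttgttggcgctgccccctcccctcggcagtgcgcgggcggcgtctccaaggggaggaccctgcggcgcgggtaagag
Col1a2: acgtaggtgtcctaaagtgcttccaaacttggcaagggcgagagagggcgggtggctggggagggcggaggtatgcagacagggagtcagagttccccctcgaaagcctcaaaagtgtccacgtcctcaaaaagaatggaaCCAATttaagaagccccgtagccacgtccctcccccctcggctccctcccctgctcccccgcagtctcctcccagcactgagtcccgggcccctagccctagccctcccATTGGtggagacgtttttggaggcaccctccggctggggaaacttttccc
Col3a1: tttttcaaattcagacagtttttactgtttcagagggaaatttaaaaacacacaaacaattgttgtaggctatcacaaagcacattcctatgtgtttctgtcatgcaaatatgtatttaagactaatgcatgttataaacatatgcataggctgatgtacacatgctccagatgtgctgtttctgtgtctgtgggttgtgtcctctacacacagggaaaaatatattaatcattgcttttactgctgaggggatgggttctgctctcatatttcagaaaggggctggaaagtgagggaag
The Col4a1 and Col4a2 windows share 78 bases, read on opposite strands. Counted from the start used for the window, the match began at -145 in Col4a1 and at -32 in Col4a2. Col1a2 held 2 matches, and Col3a1 held 0. CCAAT on either strand was found in 12 of 33 collagen windows (36.4%), against 37.4% of all 32851 windows. GGGCGG or CCGCCC was found in 21 of 33 (63.6%), against 35.7% of all windows, and TATAAA or TTTATA in 5 of 33 (15.2%), against 13.6%. These are matches of letters in the reference strain, each motif counted apart, and the mice here were ddY.

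Values are distribution free weighted (DFW) scores, 1 per probe set and array, whose level runs on a log2-like scale. Deviations between arrays of a tissue are scaled down by a weight that differs between probe sets, so a difference between treatments is no fold change. The SD of a collagen probe set between arrays of a tissue ranged in WAT between 1.598e-06 and 0.05171 score units, and the median SD over all probe sets was 1.42e-05 in WAT, 7.377e-06 in BAT and 1.085e-05 in liver. Between tissues the median absolute difference of the same probe sets was 0.2724 (WAT and liver), 0.23 (BAT and liver) and 0.2178 (WAT and BAT), far above the SD between arrays of a tissue. A test between tissues therefore passed for nearly every probe set, with 99.8% of all probe sets between WAT and liver, 99.9% between BAT and liver and 99.7% between WAT and BAT past a limma adjusted p of 0.05, and 81, 82 and 82 of the 82 collagen probe sets. The sources used here do not say whether the 3 tissues were quantified together or apart, so a difference between tissues may cross separate weighting, whose part was not tested. Tissue differences are counted only where they also exceed 1 score unit. Detection calls were not used, so whether a probe set with a score near its array's median (6.913 to 6.919 in WAT, 6.78 to 6.782 in BAT and 6.807 in liver) was above background was not determined. The labels of the tissues fitted their markers. The mean score of 6 hepatocyte markers was 8.05 in WAT, 7.09 in BAT and 14 in liver, that of 3 white adipocyte markers was 13.2 in WAT, 10.2 in BAT and 6.59 in liver, and that of 4 brown adipocyte markers was 6.85 in WAT, 11 in BAT and 6.76 in liver.

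Some arrays stood apart in markers of neighbouring tissue. The mean score of 8 epididymis markers in WAT was 9.83 in CAAM mouse 6, against 6.62 to 7.49 in the other CAAM mice, and was 11.8 and 10.7 in water mice 1 and 2, against 7.5 to 7.99 in the other water mice. The mean score of 8 skeletal muscle markers in BAT was 11 in CAAM mouse 2 and 11.6, 10.6 and 9.05 in water mice 1, 3 and 7, against 6.54 to 7.05 in the other CAAM mice and 6.85 to 7.35 in the other water mice. Collagen calls and chain relations that rest on these arrays are given with and without them, and marker lists only with them.

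The first question was how collagen levels differ between the fat depots and the liver of water mice. The major chains of types I, III, IV, V and VI were higher in WAT than in BAT and higher in BAT than in liver, with differences between WAT and liver of up to 5.0 score units, while Col18a1 was highest in liver. Among the 82 probe sets, 27 (32.9%) were higher in WAT than in liver by over 1 score unit, against 8.34% of all probe sets, and 3 (3.66%) were lower, against 3.96%. In BAT 17 (20.7%) were higher than in liver, against 4.59%, and 3 were lower, against 5.02%. Between the fat depots 23 (28%) were higher in WAT than in BAT, against 4.9%, and 1 was lower, against 1.77% (limma on differences within 7 mice, Benjamini-Hochberg adjusted p under 0.05 over all probe sets). The median difference of the collagen probe sets was 0.24 (WAT minus liver), 0.05 (BAT minus liver) and 0.20 (WAT minus BAT), against 0.05, -0.02 and 0.09 over all probe sets, so most collagen probe sets lay near zero and a subset lay far above it. The 3 comparisons share arrays and are not independent of each other. By their representative probe sets 19 of 42 genes ran in the order WAT, BAT, liver, 8 in the order liver, WAT, BAT, 6 in the order WAT, liver, BAT, 5 in the order liver, BAT, WAT, and 2 each in the orders that begin with BAT. In bulk tissue, fewer cells of a type and less RNA per cell cannot be told apart.

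**Figure D1:**
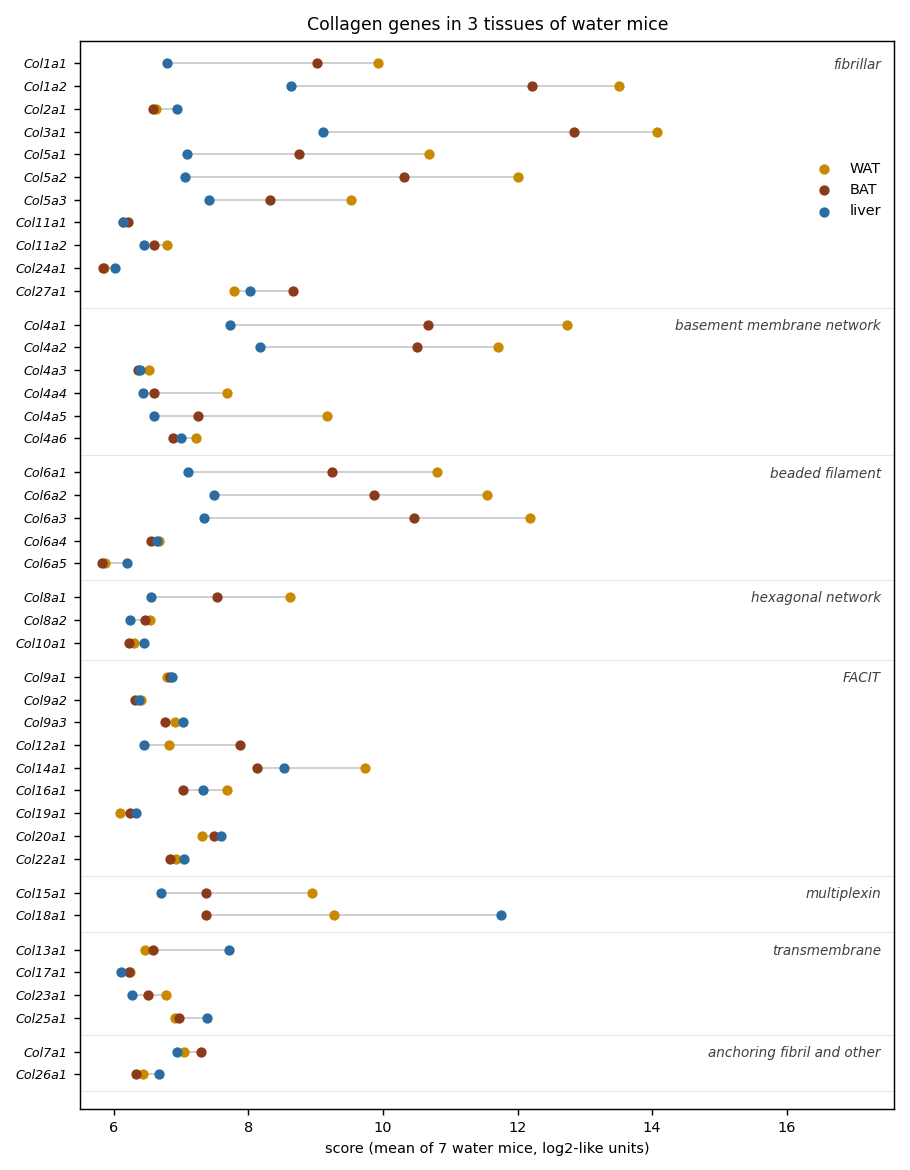
Mean score of each of the 42 collagen genes in 7 water mice (x axis, log2-like score units), by class, with WAT in ochre, BAT in brown and liver in blue. Col1a1, Col1a2, Col3a1, the type V genes, Col4a1, Col4a2 and Col6a1 to Col6a3 are highest in WAT and lowest in liver, while Col18a1 and Col13a1 are highest in liver, at 11.75 and 7.72.

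**Figure D2:**
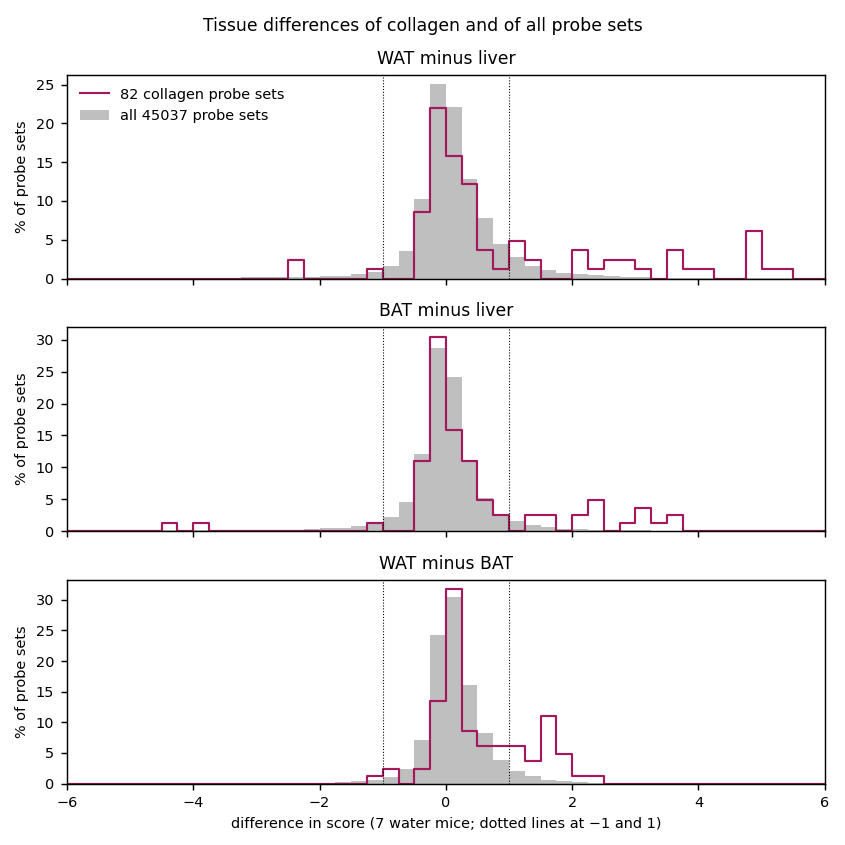
Share of probe sets (y axis, %) by difference in score between tissues of 7 water mice (x axis), for the 82 collagen probe sets (line) and all 45037 probe sets (grey). The collagen line has a tail above 1 score unit, which held 27, 17 and 23 probe sets in the 3 panels.

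Of the fibrillar genes, 6 of 11 were higher in WAT than in liver by over 1 score unit and 0 were lower, and 5 of 11 were higher in BAT than in liver. Type I collagen, the most abundant fibre of connective tissue, has chains made by Col1a1 and Col1a2. Col1a1 scored 9.93 in WAT, 9.02 in BAT and 6.80 in liver (means of 7 water mice), a difference of 3.13 between WAT and liver. Col1a2 scored 13.51 in WAT, 12.21 in BAT and 8.63 in liver. Rounded to the second decimal, Col1a1 was 9.93 in WAT, 9.02 in BAT and 6.80 in liver in single mice, CAAM mice included. The weighting shrinks differences between mice, so this closeness is no measure of how far apart the tissues lay. Col3a1, the chain of type III collagen, which forms the finer fibres of soft organs, scored 14.07 in WAT, 12.83 in BAT and 9.11 in liver, where single mice ranged between 9.11 and 9.12. The chains of type V, which sit inside type I fibrils and set their width, followed the same order. Col5a1 scored 10.69 in WAT, 8.75 in BAT and 7.10 in liver, Col5a2 scored 12.003, 10.32 and 7.06 in these tissues, and Col5a3 scored 9.52, 8.32 and 7.41. The remaining fibrillar genes differed by less than 1 unit between tissues. Col2a1, the chain of cartilage fibres, scored 6.63 in WAT, 6.58 in BAT and 6.95 in liver, and Col11a1 and Col24a1 were also close in the 3 tissues. Col11a2 had the order of the major chains at a small size, with 6.79 in WAT, 6.59 in BAT and 6.44 in liver. Col27a1, a fibrillar chain expressed in cartilage, was highest in BAT, with 7.78 in WAT, 8.67 in BAT and 8.03 in liver.

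Of the basement membrane genes, 4 of 6 were higher in WAT than in liver by over 1 score unit and 2 of 6 were higher in BAT than in liver. Col4a1 scored 12.73 in WAT, 10.67 in BAT and 7.73 in liver, a difference of 5.0 between WAT and liver (limma adjusted p = 2.01e-24). This difference was nearly the same in each of the 12 mice. The weighting leaves little spread between mice of a tissue, and the small p-value reflects that. Col4a2 scored 11.71 in WAT, 10.51 in BAT and 8.18 in liver. The chains of the more restricted type IV molecules, known from kidney and lung, differed in part. Col4a4 scored 7.69 in WAT, 6.59 in BAT and 6.43 in liver, and Col4a5 scored 9.16, 7.26 and 6.60 in these tissues. Col4a3 and Col4a6 differed by 0.13 and 0.22 between WAT and liver, and by -0.03 and -0.12 between BAT and liver. Of the 2 remaining head-to-head pairs, then, Col4a4 and Col4a5 were over 1 unit higher in WAT than in liver while their neighbours Col4a3 and Col4a6 were not.

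Of the beaded filament genes, the 3 chains of the classical type VI molecule were higher in both fat depots. Col6a1 scored 10.81 in WAT, 9.24 in BAT and 7.11 in liver, Col6a2 scored 11.55, 9.86 and 7.49, and Col6a3, the chain from which endotrophin is cut, scored 12.19, 10.47 and 7.34. The later type VI chains Col6a4 and Col6a5 did not follow. Col6a4 scored 6.68 in WAT, 6.55 in BAT and 6.65 in liver, and it was the single collagen probe set whose WAT and liver scores overlapped over the 12 mice (WAT minus liver adjusted p = 0.243). Of the hexagonal network genes, Col8a1, a chain of vessel walls, scored 8.62 in WAT, 7.53 in BAT and 6.56 in liver, and Col8a2 and Col10a1 differed by less than 1 unit.

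The remaining classes split. FACIT collagens decorate fibrils, and 1 of their 9 genes was over 1 unit higher in WAT than in liver. Col14a1, which coats type I fibrils, scored 9.74 in WAT, 8.12 in BAT and 8.53 in liver. Col12a1, which binds the same fibrils and is known from tendon and muscle, scored 6.82 in WAT, 7.88 in BAT and 6.44 in liver. Its other probe sets gave 0.00, 0.03 and 0.26 for WAT minus BAT. By its representative probe set it was the member lower in WAT than in BAT by over 1 unit (-1.07). Skeletal muscle markers were also higher in BAT than in WAT, with 5 of 8 past 1 unit, and their part in this difference was not tested. Without the mice high in these markers the count remained 1. Single mice ranged only between -1.08 and -1.04 for Col12a1, so leaving mice out could hardly change this count, which does not bear on that part. The multiplexins are basement membrane collagens that carry glycosaminoglycan chains, and they lay on opposite sides. Col15a1 scored 8.94 in WAT, 7.37 in BAT and 6.70 in liver. Col18a1 scored 9.27 in WAT, 7.36 in BAT and 11.75 in liver, so WAT minus liver was -2.48 and BAT minus liver was -4.39, and its second probe set gave -2.30 and -3.81. Col13a1, a transmembrane collagen of cell junctions, scored 6.47 in WAT, 6.59 in BAT and 7.72 in liver. Col17a1, Col23a1 and Col25a1, of the same class, and Col7a1, the anchoring fibril of skin, differed by less than 1 unit.

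Probe sets of 1 gene did not always give the same size. Between WAT and liver they differed by over 1 unit in 9 of 27 genes and in sign in 8, with a median gap of 0.46. Col1a2 gave 4.88 by its representative probe set and 0.97 by another, Col5a1 gave 3.59 and 0.55, Col4a1 gave 5.0 and 2.93, and Col8a1 gave 2.06 and 0.19. Between WAT and BAT the probe sets of Col14a1 gave 1.62 and -0.00, and between BAT and liver those of Col12a1 gave 1.44 and -0.14.

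The genes that build, cross-link and bind collagen moved with the same tissues in part. Of 16 chain modification and folding genes, 7 were over 1 unit higher in WAT than in liver and 0 lower, 1 was higher and 2 were lower in BAT than in liver, and 3 were higher in WAT than in BAT. Serpinh1, the collagen chaperone HSP47, was 3.76 higher in WAT and 3.03 higher in BAT than in liver. P4hb, a subunit of prolyl 4-hydroxylase that also serves other secreted proteins, gave -0.98 in WAT and -3.11 in BAT against liver. Of 9 propeptide removal and cross-linking genes, 4 were higher in WAT than in liver, and 2 were higher and 1 lower in BAT than in liver. Those higher in WAT included the lysyl oxidases Lox (2.89) and Loxl1 (3.42) and the procollagen proteinase enhancer Pcolce (2.93). Bmp1, the proteinase itself, gave -0.68 in WAT and -1.59 in BAT against liver. Of 9 receptors, 2 were higher in WAT than in liver and 2 in BAT than in liver. Among them Ddr2, a receptor for fibrillar collagen, gave 2.63 in WAT. Of 10 degradation genes 3 were higher in WAT than in liver, namely Mmp2 (2.64), a gelatinase, and the inhibitors Timp2 (2.88) and Timp3 (2.66). In BAT 2 of the 10 were higher than in liver. Of 6 genes of the TGF-beta pathway, a known inducer of collagen, 4 were higher in WAT than in liver and 1 in BAT than in liver. All 7 fibroblast and progenitor markers were over 1 unit higher in WAT than in liver, 4 of 7 in BAT than in liver and 6 of 7 in WAT than in BAT. Of 6 stellate cell markers 2 were over 1 unit lower in WAT than in liver (Lrat -1.99 and Reln -3.38), 1 was higher (Rgs5, 1.71), and Des, Hand2 and Hgf differed by less (0.53, -0.09 and -0.26). The part of these cell types in the collagen differences was not tested.

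The second question was whether CAAM changed collagen levels within a tissue. Differences are given as the CAAM mean minus the water mean, divided by the SD within groups (SD units, SE about 0.57 for most probe sets), and values of single mice as their deviation from the water mean in the same units. By limma 0 of 82 collagen probe sets passed in WAT, BAT or liver, as did 0% of all probe sets in each tissue. At an unadjusted p under 0.05 there were 1 of 82 in WAT (3.96% of all probe sets), 1 in BAT (6.41%) and 2 in liver (6.77%). The lowest adjusted p of a collagen probe set was 1 in WAT, 0.704 in BAT and 0.636 in liver. The median over the 82 probe sets was -0.06 in WAT, -0.03 in BAT and -0.08 in liver, against 0.01, -0.01 and -0.09 over all probe sets, with 33 higher and 49 lower in WAT, 39 and 43 in BAT and 35 and 47 in liver. The shares higher were thus 40.2%, 47.6% and 42.7%, against 51.1%, 49.2% and 44.5% of all probe sets. Differences of over 1 SD in either direction were found for 9 of 82 in WAT, 5 in BAT and 9 in liver, against 10.3%, 14% and 15.1% of all probe sets. The CAAM and water mice overlapped for all 82 probe sets in all 3 tissues. The share over all probe sets was not counted, so this overlap is not shown to be particular to collagens.

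Signs of these small differences depended on the scaling. Quantile normalization turned the sign of 35 of 67 differences of the named probe sets (11 of 24 in WAT, 16 of 23 in BAT and 8 of 20 in liver). Array medians differed by far more than the typical SD, so centring arrays on their medians shifts all probe sets of an array alike, and the signs it gives say nothing of single genes. Quantile normalization also moves scores array by array. The signs it turns, here and below, show dependence on the scaling and not the direction of a gene. Probe sets of 1 gene gave opposite signs in 8 of 27 genes in WAT, 14 in BAT and 9 in liver.

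**Figure D3:**
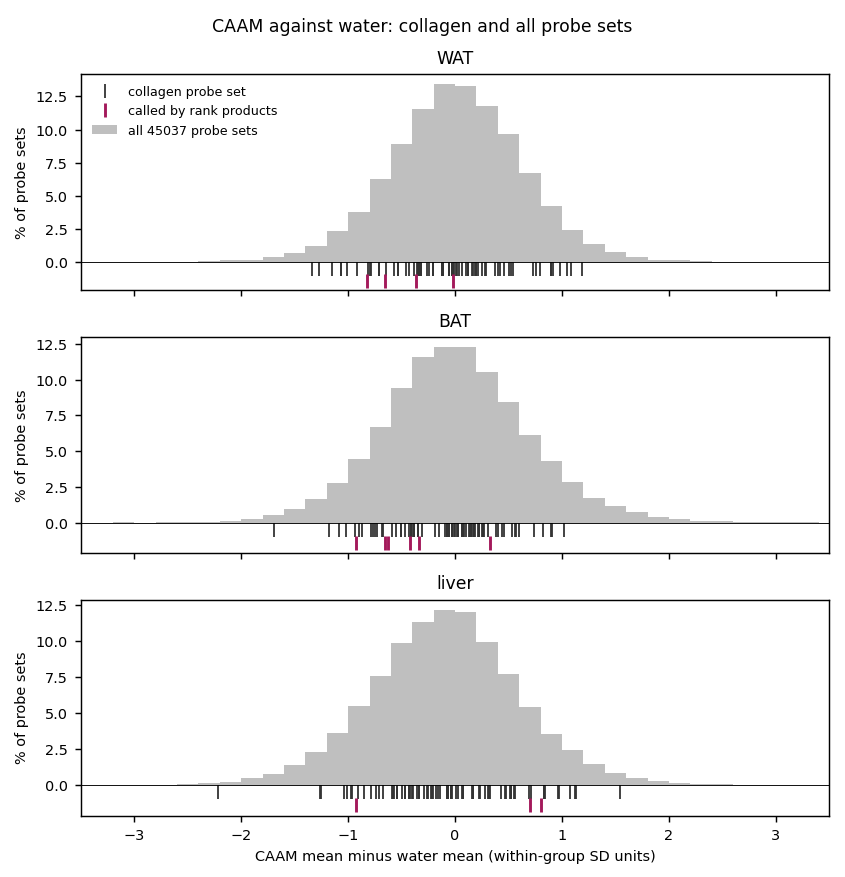
CAAM mean minus water mean in within-group SD units (x axis) for all 45037 probe sets (grey, % on the y axis) and for each collagen probe set (ticks, those called by rank products below in magenta) in WAT, BAT and liver. The collagen ticks spread over the middle of the grey distribution, with medians of -0.06, -0.03 and -0.08.

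The rank product test, which the study used, ranks the raw score differences and so favours probe sets with a large spread. A call is an estimated share of false positives (pfp) under 0.05 in 1 direction. In WAT it called 0 of 82 collagen probe sets higher, against 0.822% of all, and 4 (4.88%) lower, against 1.94%. In BAT it called 1 (1.22%) higher, against 1.18%, and 5 (6.1%) lower, against 2.06%. In liver it called 2 (2.44%) higher, against 1.62%, and 1 (1.22%) lower, against 1.17%. The SD of the 13 called probe sets stood between the 92.4 and 99.3 percentiles of all probe sets of the tissue, against a median percentile of 67, 57.8 and 47.6 for the 82 collagen probe sets in WAT, BAT and liver. After division of each difference by the SD, 0 of the 13 calls remained.

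In WAT the lower calls were Col6a4 (pfp 0.000244), Col4a5 (0.0286), Col4a4 (0.0348) and Col5a3 (0.0458). Each call rested on 1 probe set of its gene. The other probe sets had a pfp of 1.33 for Col6a4, 0.0792 for Col4a5, 0.0563 and 1.04 for Col4a4, and 1.35 for Col5a3. The Col6a4 scores were 6.649, 6.652, 6.638, 6.649 and 6.639 in the 5 CAAM mice, against 6.820, 6.702, 6.653, 6.633, 6.650, 6.655 and 6.642 in the 7 water mice. Water mice 1 and 2, the mice with the highest epididymis markers, stood above the rest, and the other 5 water mice overlapped with the CAAM mice. The standardised difference was -0.66 with these arrays and -0.23 without the 3 arrays high in epididymis markers, where Col6a4 (pfp 0.0315) and Col5a3 (0.019) were still called and Col4a5 and Col4a4 were not. Col4a5 deviated by -1.89, -0.94, 0.41, -0.48 and -1.18 SD in the CAAM mice, against -1.82 to 1.74 (median 0.13) in the water mice, which left the groups overlapping. Col5a3 was called with a standardised difference of -0.02, its CAAM mice ranging between -1.34 and 1.40 SD and its water mice between -1.41 and 1.0. Leaving out single mice kept the Col6a4 call in 12 of 12 runs. Col4a4 was called in 8 runs, but not when CAAM mouse 2 or 4 or water mouse 1 or 2 was left out, Col4a5 was called in 6 and Col5a3 in 4. The second probe set of Col18a1 gave the lowest limma p in WAT (-1.34, limma adjusted p = 1), and gave -0.11 under quantile normalization. The representative probe set of Col18a1 gave -1.15, and 0.38 under quantile normalization. Mesothelium markers, of the cell layer over visceral fat, were lower in CAAM WAT by rank products for 6 of 6 genes (median -1.84), and of 7 fibroblast and progenitor markers Pdgfra and Cd34 were (median of the list -0.88). The mean deviation of the fibroblast list was -2.43 SD in CAAM mouse 6, whose array was high in epididymis markers. It was -0.93, -0.60, 0.09 and -0.12 SD in CAAM mice 2, 4, 5 and 7, against -0.40 to 0.68 in water mice. The part of mesothelium and fibroblasts in the collagen values was not tested.

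In BAT the chains of type I, III, V and VI varied together from mouse to mouse in the scores as deposited, though Col1a1 with Col1a2 (r = 0.87) and with Col3a1 (r = 0.76) had r = 0.34 and 0.45 under quantile normalization. The mean deviation of 8 such chains (Col1a1, Col1a2, Col3a1, Col5a1, Col5a2, Col6a1, Col6a2 and Col6a3) was -0.28, -0.03, 0.87, -0.83 and -0.67 SD in CAAM mice 2, 4, 5, 6 and 7, against -0.12, -0.59, -0.18, -1.79, 0.24, 1.64 and 0.79 in water mice 1 to 7. Water mouse 6 was the highest and water mouse 4 the lowest of all 12, so the water group spanned the CAAM group. The fibroblast and progenitor markers deviated by -1.55 SD in water mouse 4 and 1.23 SD in water mouse 6, and their part was not tested. The lower calls were Col6a1 (pfp 0.00873), Col5a1 (0.0092), Col6a3 (0.03) and both probe sets of Col27a1 (0.0327 and 0.0392), and the higher call was a probe set of Col1a2 (0.0404). The other probe sets of Col5a1 were not called lower (pfp 1.26 and 0.516). Those of Col1a2 were not called higher (pfp 0.375 and 0.966), with standardised differences of 0.16 and -0.77. Col6a1 deviated by -0.78, -0.56, 0.13, -1.23 and -0.86 SD in the CAAM mice, against -1.69 to 2.08 (median -0.29) in the water mice. Without water mouse 6 the Col5a1 and Col6a3 calls were lost, while Col6a1 was called in 12 of 12 runs without a single mouse. Without the 4 BAT arrays high in muscle markers 0 of the 5 lower calls remained, and the Col1a2 call did (pfp 0.0408). The Col1a2 probe set had a standardised difference of 0.33 and was called in 6 of 12 runs, but not when CAAM mouse 4, 5 or 7 or water mouse 2, 3 or 4 was left out. Col5a1 was called in 11 runs, Col6a3 in 5 and the probe sets of Col27a1 in 4 and 2. The representative probe set of Col27a1 deviated by -1.16, -1.46, -1.76, -1.35 and 1.09 SD in the CAAM mice, against -1.42 to 1.58 (median -0.06) in the water mice, and its mean difference was -0.93, and 0.48 under quantile normalization. All 8 skeletal muscle markers were lower in CAAM BAT by rank products (median -0.47), and 0 of them had an unadjusted limma p under 0.05. The arrays high in them were those of CAAM mouse 2 and water mice 1, 3 and 7. The part of muscle in the collagen values was not tested. Col16a1, a FACIT chain, gave the lowest limma p in BAT (-1.69, limma adjusted p = 0.704), and 0.76 under quantile normalization.

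In liver the higher calls were Col3a1 (pfp 0.00829) and Col4a1 (0.0202) and the lower call was Col27a1 (0.0346). The other probe set of each gene was not called (pfp 0.0621 for Col3a1, 1.15 for Col4a1 and 0.0549 for Col27a1). Col3a1 deviated by -0.75, 1.47, 2.18, 0.13 and 0.46 SD in CAAM mice 2, 4, 5, 6 and 7, against -1.07 to 1.39 (median -0.18) in the water mice. CAAM mice 4 and 5 were above all water mice, and the call, kept in 10 of 12 runs, was lost without either of them. Col4a1 deviated by 0.73, 1.37, 1.51, -0.15 and 0.53 SD in the CAAM mice, against -1.95 to 1.33 (median 0.35) in the water mice, of which mouse 6 was the lowest, and the call was kept in 7 of 12 runs without a single mouse and lost when CAAM mouse 2, 4, 5 or 7 or water mouse 6 was left out. The Col27a1 call was kept in 5 of 12 runs. The 8 fibrillar and type VI chains deviated by 1.98 SD in CAAM mouse 5 and 1.11 SD in CAAM mouse 4, against -1.25 to 0.92 SD in the water mice, and by -0.73, -0.21 and 0.03 SD in CAAM mice 2, 6 and 7. Of 6 macrophage markers 5 were higher in CAAM livers by rank products (median 1.36), with a mean deviation of 2.91 SD in CAAM mouse 5, and endothelium markers had a median of 0.91. The part of these cells in the collagen values was not tested. Col2a1 gave the lowest limma p of the collagens (-2.22, limma adjusted p = 0.636). Its deviations were -2.33, -1.46, -2.34, -3.02 and -1.98 SD in the CAAM mice, against -1.66 to 1.42 (median 0.02) in the water mice, and water mouse 2 reached into the CAAM range. Col14a1 gave 1.54, 1.13 and 1.07 SD by its 3 probe sets (limma adjusted p = 0.695 for the first), and quantile normalization turned the sign of the first and second.

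**Figure D4:**
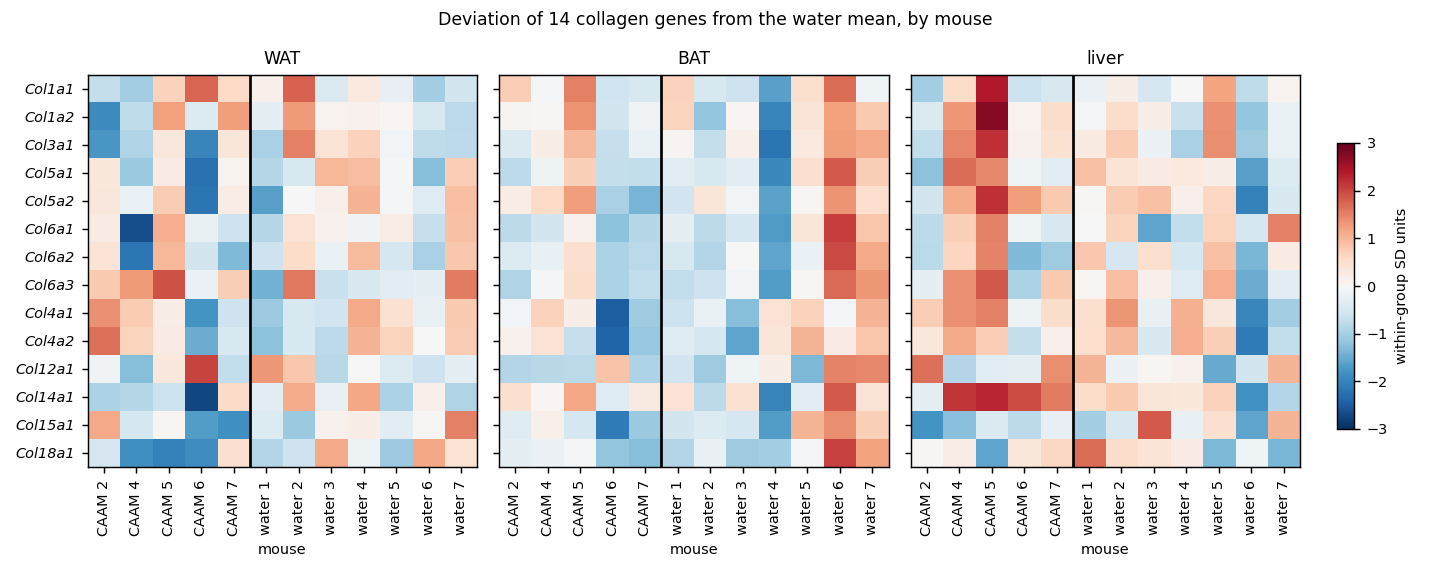
Deviation of 14 collagen genes (rows) from the water mean in each of 5 CAAM and 7 water mice (columns), in within-group SD units by colour, in WAT, BAT and liver. In BAT the rows Col1a1 to Col6a3 change together in water mouse 4 (mean -1.79) and water mouse 6 (mean 1.64), and in liver they are high in CAAM mouse 5 (mean 1.98).

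The 5 lists of genes around collagen hold 50 genes. By limma 0 passed in any of the 5 lists in any tissue, with 0 to 2 genes a list at an unadjusted p under 0.05. By rank products 5 of the 50 (10%) were called lower in WAT, against 1.94% of all probe sets, and 0 higher. In BAT 1 was called lower and 1 higher (2% each, against 2.06% and 1.18%), and in liver 1 was called higher (2%, against 1.62%) and 0 lower. The calls were lower in WAT for P4ha2, a prolyl hydroxylase subunit, Pcolce2, Ddr2, the collagenolytic protease Ctsk and Timp2, lower in BAT for Timp2, and higher for Ccn2, a matrix protein induced by TGF-beta, in BAT and liver. Ccn2 in liver gave the lowest p of these genes (2.45 SD, limma adjusted p = 0.636).

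Whether the CAAM difference itself differed between tissues was tested on differences within mice. By limma 0 of 82 collagen probe sets and 0% of all probe sets passed for each pair of tissues. At an unadjusted p under 0.05 there was 1 of 82 between WAT and liver (5.38% of all), 4 between BAT and liver (6.19%) and 0 between WAT and BAT (5.57%). Col16a1 gave the lowest p (-1.72 SD in BAT minus liver, limma adjusted p = 0.735).

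The third question was whether chains of 1 molecule, or of fibres built together, varied together over the 12 mice of a tissue. Of 18 relations (6 pairs of chains in 3 tissues), 14 passed an adjusted permutation p of 0.05, 4 in WAT, 6 in BAT and 4 in liver. The counts were the same by Pearson's r and by Spearman's rho (100000 resamples, Benjamini-Hochberg over the 18). How often other pairs of probe sets correlate as strongly over these arrays was not examined. The count is therefore not shown to be particular to chains of 1 molecule. Col4a1 and Col4a2 had r = 0.98 in WAT, 0.94 in BAT and 0.95 in liver (rho 0.99, 0.92 and 0.88, adjusted permutation p = 6e-05, 7.2e-05 and 7.2e-05 for r and 0.00018, 0.00066 and 0.0014 for rho). The unadjusted p of r in WAT, 1e-05, is the smallest these resamples can give. Without the 2 mice farthest from the median of Col4a1 r was 0.98, 0.85 and 0.86, and within the 7 water mice it was 0.98, 0.95 and 0.97. Col6a1 and Col6a2 had r = 0.87 in WAT, 0.96 in BAT and 0.50 in liver (rho 0.86, 0.92 and 0.55, adjusted permutation p of r = 0.000742, 6e-05 and 0.117), and Col6a1 and Col6a3 had 0.23, 0.94 and 0.50 (rho 0.54, 0.88 and 0.53, adjusted permutation p of r = 0.5, 6e-05 and 0.117). The value of Col6a1 and Col6a3 in WAT rested on single mice, with r = 0.65 without CAAM mice 4 and 5, 0.80 within the 7 water mice, and 0.07 without the arrays high in epididymis markers. Col1a1 and Col1a2, the chains of type I, had 0.62, 0.87 and 0.87 (rho 0.76, 0.80 and 0.71, adjusted permutation p of r = 0.0428, 0.00048 and 0.00122). Without the 2 farthest mice these were 0.79, 0.79 and 0.57. Col5a1 and Col5a2 had 0.85, 0.82 and 0.78, and Col1a1 and Col3a1, chains of different molecules in mixed fibres, had 0.31, 0.76 and 0.83. Without the arrays high in markers of neighbouring tissue the same 14 relations passed, and Col1a1 with Col3a1 in WAT passed as well (r = 0.76). Under quantile normalization 14 relations again passed, of which 10 were the same. The relations lost were Col1a1 with Col1a2 (r = 0.34) and with Col3a1 (0.45) in BAT, and Col1a1 with Col3a1 (0.40) and Col4a1 with Col4a2 (0.38) in liver. Those gained in WAT were Col1a1 with Col3a1 (0.92) and Col6a1 with Col6a3 (0.95). In liver they were Col6a1 with Col6a2 (0.69) and with Col6a3 (0.84). All 6 WAT pairs had r between 0.92 and 0.99 in this setting. A shift shared by the probe sets of an array was thus not told apart from relations of single pairs. After removal of the group means the same 14 passed. The points of a panel share array and RNA sample, and single mice such as CAAM mouse 5 in liver and water mouse 6 in BAT lay at the ends of several pairs.

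**Figure D5:**
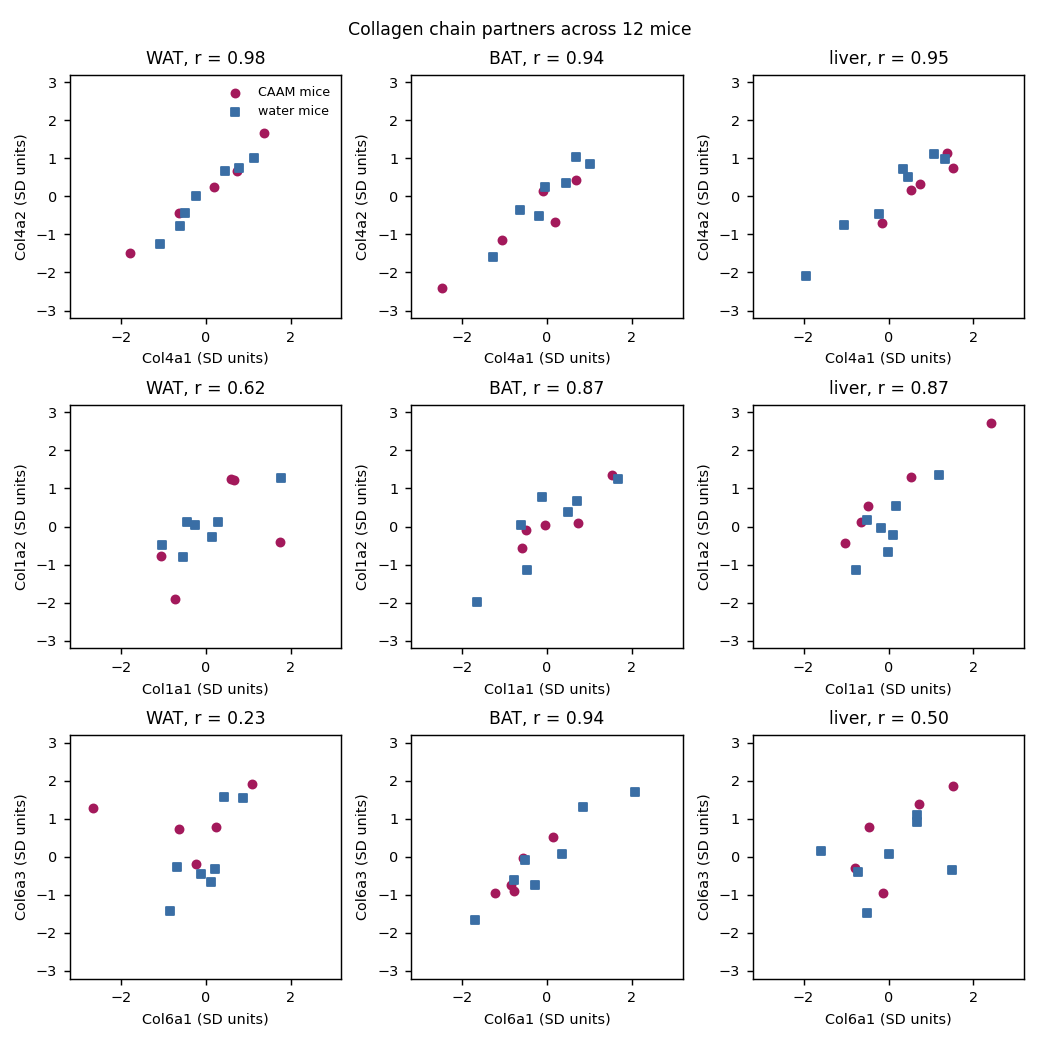
Deviations of chain partners in 12 mice per tissue (both axes in within-group SD units, CAAM mice as circles, water mice as squares), with Pearson's r in each panel. Col4a1 and Col4a2 lie near a line in WAT, BAT and liver (r = 0.98, 0.94 and 0.95), while Col6a1 and Col6a3 do so in BAT (0.94) and less in WAT, where r is 0.23 over 12 mice and 0.65 without CAAM mice 4 and 5.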

How the data were processed

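RNA of liver, WAT and BAT was hybridised to Affymetrix whole-genome mouse arrays. The deposited values are scores that the authors computed from the scanned arrays with the distribution free weighted method, in R (version 2.7.1 in their methods, version 2.7.2 in the processing notes of the submission). Of 45101 probe sets, 64 controls were left out, 34945 carried 1 gene symbol, 932 several and 9160 none, and no filter on low values was set. Columns of other series numbered 0.

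Groups were compared by rank products over all 35 pairs of a CAAM and a water array (100 permutations, 20 under each alternative) and by limma (version 3.58.1, under R 4.3.3, with lmFit and then eBayes, two-sided, Benjamini-Hochberg over all 45037 probe sets). Tissues, and CAAM effects between tissues, were compared by limma on differences within mice. The same number in the tissues of a treatment was taken as 1 mouse: 235 probe sets correlated above 0.9 between WAT and BAT as labelled, against at most 4 over 11 shifted numberings. The tests were tested on simulated data. The tests were written down for values on a plain log2 scale, which the scores are not, and were kept. The p-values of limma and of the correlations rest on separate mice, and precision is limited by how many arrays there are. Between tissues they rest on a spread that the weighting has shrunk. The pfp of rank products comes from permuting values within each array, so it does not measure the spread between mice.

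The members, the gene lists (119 genes outside the collagens, 110 measured) and the rule for named genes were chosen with earlier results of these data known. The rule named the major chains of each class, members called or with the lowest limma p, those with the largest tissue differences or disagreement between probe sets, and list genes called or with the lowest p. Alternatives were other scalings, filters, priors and sizes, the replicate block and leaving out each mouse. Runs without arrays high in epididymis or muscle markers were chosen after seeing the data. Calculations used numpy 2.4.6, pandas 2.3.3 and scipy 1.17.1. Arrays of the other amino acid mixture were not analysed here.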

Additional observations from a re-analysis of the deposited data

Results flagged for a closer look

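Within a group of 5 or 7 mice, the gap between an extreme mouse and its neighbour was divided by the range of the group and set against Dixon's limit (0.71 for 5 mice, 0.568 for 7). Of 134 groups of named collagen probe sets examined, 7 held a mouse past the limit. Chance gives about 1 in 20, so the count is near that share, and the 7 are listed for a closer look only. In WAT, Col6a4 was highest in water mouse 1 (0.632), an array high in epididymis markers. In BAT, Col12a1 was highest in CAAM mouse 6 (0.943), both probe sets of Col27a1 were highest in CAAM mouse 7 (0.716 and 0.787), and a probe set of Col5a3 was lowest in water mouse 7 (0.725), an array high in muscle markers. In liver, Col14a1 was lowest in CAAM mouse 2 (0.715) and Col18a1 was lowest in CAAM mouse 5 (0.738).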

How the results depend on the processing

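Tissue counts held under most settings. Leaving out mice could hardly change them, since the weighting leaves little spread between mice of a tissue. The count of collagen probe sets higher in WAT than in BAT (23) became 2 at a size of 2 score units, and the count of those lower in WAT than in BAT (1) became 2 under quantile normalization, 2 with centred arrays, 3 at a size of 0.5 and 0 at a size of 2.

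Rank product calls for CAAM depended on the setting. The lower calls in WAT (4) became 1 under quantile normalization, 1 without dim probe sets, 0 with differences divided by the SD and 2 without the arrays high in epididymis markers, and ranged between 2 and 6 without a single mouse. The lower calls in BAT (5) became 0 under quantile normalization, 2 without dim probe sets, 0 with differences divided by the SD and 0 without the arrays high in muscle markers (2 to 6 without a single mouse), and the higher call in BAT (1) became 0 under each of the first 3 (0 to 2). The higher calls in liver (2) became 1 under quantile normalization, 1 without dim probe sets and 0 with differences divided by the SD (0 to 4), and the lower call in liver (1) became 0 without dim probe sets and with differences divided by the SD (0 to 2). The cause was not tested, other than that fewer probe sets or arrays entered where these were left out. limma called 0 collagen probe sets under every alternative run.

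With the mouse number as a replicate block limma also called 0 in each tissue. Mice of the 2 treatments with the same number did not deviate together (r between -0.19 and 0.15), so the number does not pair them. Without the block the tissue counts were unchanged.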
